A study of Homo sapiens with 6 samples.

Results

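The siRNAs against the RAF, MEK, ERK and RSK tiers of the mitogen-activated protein kinase cascade were taken from a screen of 939 library wells by the locus identifier of their target gene. Of 21 genes sought, 20 had a library well, 1 well each, and KSR1 had none in the table used here. The wells lay on plate 1 (3 wells), plate 2 (11) and plate 3 (6). The rule for a member was the identity of its target gene. The cells were the established cell line SUM149PT, which comes from a triple-negative inflammatory breast cancer, in 3 EPA-treated samples and 3 untreated samples. EPA is eicosapentaenoic acid, a polyunsaturated fatty acid. All groups received 45 nM siRNA by reverse transfection, with 750 cells per condition, and stood for 48 hours. EPA-treated samples then received 50 µM EPA, labelled as the IC50, and stood for a further 72 hours. The readout was the fluorescence of resazurin reduced by living cells, in arbitrary units per well. Nothing in the labels tells whether samples of a group came from separate cultures, and every p-value therefore covers only sample-to-sample spread that may be technical.

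In this cascade a RAF kinase phosphorylates MEK, MEK phosphorylates ERK, and ERK phosphorylates many proteins, among them the RSK, MSK and MNK kinases. KSR proteins are scaffolds that bring RAF and MEK together, and dual-specificity phosphatases such as DUSP4 remove the phosphates from ERK. A parallel arm runs through MEK5 to ERK5, while ERK3 and ERK4 are atypical kinases outside the usual RAF and MEK route. The pathway is known in breast cancer cells, as in many tumours, for carrying growth factor signals to proliferation and survival genes. The siRNA sequences were not used here.

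The controls set the range in which the members can be read. OTP3, the negative control siRNA, read 21951 ± 4049 units with EPA and 49147 ± 1644 untreated (SD, n = 3 each, median well per sample), so 44.7% ± 4.83 (SE) of its signal was left. TOX, the positive control siRNA, read 3834 ± 123 with EPA and 4539 ± 277 untreated, and blank wells without cells read 3926 ± 36.7 and 3787 ± 19.2. For OTP3, TOX and blank wells the EPA-treated and untreated samples did not overlap (two-sided exact permutation p = 0.1, which 3 against 3 cannot go below). Blank wells read higher with EPA, the other way from OTP3 and TOX. TOX with EPA read below the blank in the mean over all plates, where the ranges of the 3 samples overlapped. On plate 2 TOX with EPA read above the blank (4058 against 3936.5). Plate rows were read from the well numbers, 24 to a row, an order the labels do not state. The loss with EPA differed between these rows: OTP3 kept 84.6% of its signal in row 1, 52.5% in row 3, 36.5% in row 11 and 35.1% in row 9. Replicates of a well share its position, so the spread between them does not hold this effect. For the 13 library reagents that sat on 2 wells, the EPA minus untreated log2 values of the 2 wells differed by a median of 0.37 (range 0.03 to 0.71), and 5 of the 13 had a different call on each well. Each member had 1 reagent on 1 well, and knockdown of the target was not analysed here.

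With EPA the siRNAs against DUSP4 and MOS lost more of their signal than the library did, and had the lowest EPA minus untreated differences of the members. DUSP4 kept 20.5% ± 1.25 and MOS 20.6% ± 3.89 of the untreated signal (SE). MAP2K1 also fell further with EPA, to 36.4% ± 4.14, while MAPK3, MAP2K5 and RPS6KA5 kept more signal than the library, at 102% ± 23.2, 87.1% ± 10.3 and 84.5% ± 8.37. The other 14 members did not pass the test, and kept between 45.8% (MKNK2) and 81.5% (MAPK4).

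Fluorescence was divided by the median library well of the same plate and sample, put on a log2 scale and tested for all 939 wells with limma, with Benjamini-Hochberg adjustment at 0.05. For EPA minus untreated, 3 of 20 members (15%) were lower, against 15.2% of all library wells, and 3 (15%) were higher, against 29% of all library wells. The share of lower calls was thus that of the library. With centring on the OTP3 wells in place of the library, 2 members were lower, against 6.28% of library wells, and 8 were higher, against 58.1%. The median over members was -0.10, and the median over all wells was 0.20. A log2 difference of 0 means the ratio of the plate's library medians with and without EPA, and not an unchanged signal. The 3 EPA-treated log2 values lay below the 3 untreated ones for 6 members, against 18.8% of library wells, and above them for 5, against 36% of library wells. Before any scaling, raw fluorescence with EPA lay below all untreated values for 16 members, against 61.7% of library wells, and the groups overlapped for MAP2K5, MAPK3, MAPK6 and RPS6KA5. Only DUSP4, MOS and MAP2K1 among the members kept a smaller share than OTP3 on their plate, as 17.6% of library wells did.

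In EPA-treated samples 9 members read lower than the library median, against 37% of library wells, and 4 read higher, against 36.4%. In untreated samples 7 members were lower, against 35.6% of library wells, and 8 were higher, against 33.9%. Measured from OTP3 instead, 18 members were lower with EPA, against 64.6% of library wells, and 1 was higher, against 13.5%. Untreated, 19 were lower from OTP3, against 91.8% of library wells, and 0 were higher, against 0.532% (limma). BRAF, KSR2, MAP2K1, MAPK3 and RPS6KA2 were lower in both groups, and MAP2K5, MAPK6 and RPS6KA6 were higher in both. The share of library wells with the same call in both groups is not given here, so these names describe single wells and not the set. MOS and DUSP4 were lower with EPA and higher without it, on opposite sides of the library median in all samples, as were 4.58% of library wells. MAPK4 (-0.54) was lower and MAPK7 (0.33) and MKNK1 (0.36) were higher in untreated samples, and the last 2 calls were lost on leaving out untreated replicate 1 or 2 (for MKNK1 also untreated replicate 3 or EPA-treated replicate 4). MAPK7 also lost it after median polish (0.08), with blank subtraction too (0.09) and with row centring (0.24), and MKNK1 after blank subtraction (0.42). Relative to OTP3 on the same plate, members read from 27.5% (RPS6KA2) to 147% (MAP2K5) with EPA and from 18.5% (RPS6KA2) to 92.6% (DUSP4) untreated, and without EPA the mean of every member was below that of the negative control, as it was for 97.8% of library wells. Across the 20 members, log2 values with and without EPA correlated with Pearson r = 0.55 and Spearman rho = 0.56, as a description of wells that share a plate position in both groups.

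At the top of the cascade, the siRNA against MOS, a MEK-activating kinase known from oocyte maturation, read 8954, 5183 and 6466 units in the EPA-treated samples, against 39877, 29312 and 30911 untreated. The groups were far apart, and every EPA-treated value was below every untreated value. MOS stood at -1.14 log2 units from the library median with EPA and at 0.43 without it, where the call was lost after blank subtraction (0.49, adjusted p = 0.114) and without untreated replicate 1 (0.36, adjusted p = 0.0661). The EPA minus untreated difference was -1.57 (SE 0.175, limma adjusted p = 0.000269), the 12th lowest of 939. In plate row 11, where the other wells had a median difference of -0.28, MOS was below all 19 other library wells. EPA-treated MOS wells read 1.77 times the blank, so the size of the difference depends on the background: it was -2.55 after blank subtraction and -1.06 after median polish, which removes plate row and column medians, and it passed in both.

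The RAF kinases did not pass for EPA minus untreated. The siRNA against BRAF read 7281, 6390 and 7033 with EPA, against 13518, 13795 and 12967 untreated. Those levels were low in all 6 samples, at -1.12 from the library median with EPA (SE 0.103, limma adjusted p = 4.17e-06) and -0.85 without it (SE 0.103, adjusted p = 4.52e-05). Both calls held under all alternatives tried. ARAF (listed as ARAF1) read 17461, 14435 and 15573 with EPA, against 27321, 32818 and 29008 untreated, so its wells were brighter than those of BRAF in every sample. The EPA minus untreated difference was -0.28 for BRAF (95% interval -0.60 to 0.05) and -0.23 for ARAF (-0.54 to 0.09), and neither passed (limma adjusted p = 0.144 and 0.22). EPA-treated BRAF wells read 1.77 times the blank, and BRAF passed as lower after blank subtraction (-0.82, adjusted p = 0.0336) and with the difference centred per plate (-0.42, adjusted p = 0.0474). ARAF was higher than the library median without EPA, at 0.30, but stood at -0.10 after median polish, and the call was lost without untreated replicate 2 or 3.

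The siRNA against KSR2, the scaffold, read 11013, 6836 and 6319 with EPA, against 17246, 12797 and 13462 untreated. It was lower than the library at -0.92 with EPA and -0.77 without it, with a difference of -0.15 (95% interval -0.51 to 0.21, limma adjusted p = 0.484). Its well lay in plate row 9, where the other wells had medians of -0.79 with EPA and -0.50 without it. After median polish KSR2 stood at 0.02 with EPA and 0.05 without it and passed in neither group.

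Among the MEK kinases, the siRNA against MAP2K1, the gene for MEK1, read 6154, 6128 and 6156 units with EPA, against 19923, 13335 and 17407 untreated. The raw EPA-treated values were almost identical and far below the untreated ones, but on the tested scale they spread over -1.56, -1.19 and -1.04. The EPA-treated wells read 1.58 times the blank. MAP2K1 stood at -1.26 with EPA and -0.56 without it, and both passed, but the untreated level was 0.066 after median polish. The difference was -0.70 (SE 0.186, limma adjusted p = 0.0128), below 15 of the 19 other library wells in its row, whose median was 0.21. It no longer passed after median polish (-0.39, adjusted p = 0.062), with centring on plate rows (-0.38, adjusted p = 0.101) or with centring on OTP3 (-0.18, adjusted p = 0.487), and it was -1.56 after blank subtraction.

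The siRNA against MAP2K2, the gene for MEK2, read 10913, 12504 and 10853 with EPA, against 24362, 16668 and 22942 untreated. Its difference of -0.15 (95% interval -0.59 to 0.29) did not pass (limma adjusted p = 0.553). MAP2K2 stood at -0.37 from the library with EPA (adjusted p = 0.0338) and at -0.22 without it (adjusted p = 0.179). The call with EPA was lost after median polish, with quantile normalization (-0.22), with row centring (0.10) and without EPA-treated replicate 4 or 6. MAP2K1 and MAP2K2 sat in the same row of plate 2. MAP2K1 read below MAP2K2 in all 6 samples, with a log2 gap of -0.89 ± 0.12 with EPA and -0.34 ± 0.06 without it (SD, n = 3 each).

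The siRNA against MAP2K5, the gene for MEK5, gave the highest member signal with EPA. Its wells read 29776, 36326 and 29242 with EPA, against 43280, 32646 and 33511 untreated, and these groups overlapped. It stood at 1.10 from the library median with EPA and 0.56 without it, and both passed. The difference of 0.54 (SE 0.171, limma adjusted p = 0.0275) was above 16 of the 19 other wells in its row. The call was lost under quantile normalization (0.23), with the difference centred on each plate's median well (0.33), and on leaving out untreated replicate 2 or 3 or EPA-treated replicate 5 or 6 (0.40 to 0.51).

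Of the ERK genes, MAPK3, which encodes ERK1, read 15468, 10647 and 7912 units with EPA, against 11597, 13003 and 8623 untreated. The raw values overlapped and their means were close, where the library's typical well lost signal. MAPK3 was lower than the library at -0.43 with EPA and at -1.17 without it. The first call was lost without EPA-treated replicate 5 or 6 (-0.45 and -0.31) and with quantile normalization (-0.31). The untreated call held under all alternatives tried. The difference was 0.74 (SE 0.203, limma adjusted p = 0.0151), above 18 of the 19 other wells in its row, whose median was 0.35. It did not pass after blank subtraction (0.88, adjusted p = 0.0615), after median polish (0.42, adjusted p = 0.166), with row centring (0.40), with the difference centred per plate (0.53) or without untreated replicate 3 (0.58, adjusted p = 0.0559).

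The other ERK genes did not pass for EPA minus untreated, though each did under some alternative. MAPK7, which encodes ERK5, the target of MEK5, read 18187, 14615 and 13698 with EPA, against 36277, 31609 and 25707 untreated, a difference of -0.27 (95% interval -0.61 to 0.07, limma adjusted p = 0.171). It passed as lower with the difference centred per plate (-0.48, adjusted p = 0.0347). The MEK5 and ERK5 siRNAs stood on opposite sides of the library's median difference of 0.20, but ERK5 did not pass. It was at -0.02 after median polish. Their wells lay in different rows of the plate (13 and 5), and the gap between them was not tested. MAPK4, which encodes ERK4, read 14573, 15209 and 11587 with EPA, against 17088, 16124 and 17553 untreated, at 0.43 (0.06 to 0.80, adjusted p = 0.0565). It passed as higher with quantile normalization (0.50), plain eBayes (0.43), OTP3 centring (0.95) and without EPA-treated replicate 4 (0.53). The MAPK4 difference was 0.10 with row centring, 0.33 after median polish and 0.22 with the difference centred per plate, and passed in none of these. MAPK6, which encodes ERK3, read 32597, 27004 and 23726 with EPA, against 52266, 31143 and 27989 untreated, at 0.36 (-0.04 to 0.76, adjusted p = 0.13). It passed as higher with OTP3 centring (0.88) and without untreated replicate 1 (0.57). The MAPK6 difference was -0.44 after median polish and 0.03 with row centring, and passed in neither. MAPK6 was the only member in an outer well, in column 24, and was higher than the library at 0.90 with EPA and 0.54 without it. After median polish MAPK6 stood at -0.33 with EPA, where it passed as lower, and at 0.12 without it.

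Below ERK, the RSK kinases are encoded by RPS6KA1, RPS6KA2, RPS6KA3 and RPS6KA6, and the MSK kinases, which phosphorylate CREB and histone H3, by RPS6KA4 and RPS6KA5. RPS6KA2 had the lowest raw signal of the members in both groups. Against the library median of the plate it was the lowest member untreated, while MAP2K1, MOS and BRAF were lower with EPA. RPS6KA2 read 6288, 5103 and 4905 units with EPA, against 9112, 7710 and 8279 untreated. It stood at -1.08 (SE 0.104, limma adjusted p = 6.1e-06) with EPA and -1.26 (SE 0.104, adjusted p = 3.3e-06) without it. Both calls held under all alternatives that kept the well, and it was below all 19 other wells of its row in each group. The wells read 1.40 times the blank with EPA, and the difference of 0.18 (95% interval -0.15 to 0.51, adjusted p = 0.333) became -0.56 after blank subtraction and -1.13, past the threshold as lower, with blank subtraction and median polish together.

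RPS6KA5, the gene for MSK1, read 13945, 11911 and 9984 with EPA, against 14735, 13496 and 14174 untreated. Its raw values overlapped. RPS6KA5 was near the library median with EPA (0.05) and lower without it (-0.51), so the difference was 0.56 (SE 0.151, limma adjusted p = 0.0143). That difference was above 16 of the 19 other wells in its row, whose median was 0.32, and with row centring it was 0.25 (adjusted p = 0.231) and the untreated level -0.24 (adjusted p = 0.0836). It was also lost with the difference centred per plate (0.30) and when blank subtraction preceded the median polish (0.66, adjusted p = 0.106), and passed after median polish (0.53, adjusted p = 0.0485). RPS6KA4, the gene for MSK2, had the widest interval of the members. It read 18721, 9104 and 12917 with EPA, against 22002, 23114 and 22921 untreated, at 0.01 (-0.52 to 0.54).

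For EPA minus untreated, the remaining RSK siRNAs lay between the library's 25th and 75th percentiles (-0.23 and 0.50). RPS6KA1 read 13618, 13140 and 13852 with EPA, against 26991, 19077 and 21987 untreated, with a difference of 0.08 (95% interval -0.26 to 0.42). RPS6KA3 read 16297, 16098 and 10950 with EPA, against 19361, 21905 and 19174 untreated, at 0.31 (-0.08 to 0.70). RPS6KA6 read 13246, 16577 and 13575 with EPA, against 34992, 22336 and 22730 untreated, at -0.05 (-0.44 to 0.35). None of these passed (limma adjusted p = 0.171 to 0.839). With OTP3 centring RPS6KA1 (0.47), RPS6KA2 (0.57) and RPS6KA3 (0.70) passed as higher. RPS6KA6 was higher than the library in both groups, at 0.33 with EPA and 0.38 without it, and at 0.03 and 0.41 after median polish, where only the untreated call was kept. Those calls were also lost without EPA-treated replicate 5 or 6 and without untreated replicate 1. Both RPS6KA6 calls were lost with quantile normalization. RPS6KA3 was higher than the library with EPA, at 0.31, and not without EPA-treated replicate 4 or 5. That call was also lost with quantile normalization (0.055), with row centring (-0.050) and after median polish (-0.17).

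The MNK kinases phosphorylate the translation factor eIF4E. MKNK1 read 19957, 11579 and 17843 with EPA, against 30155, 32677 and 31698 untreated, and MKNK2 read 11737, 7002 and 9147 with EPA, against 21619, 21871 and 17417 untreated. MKNK1 was brighter than MKNK2 in every sample. Their differences of -0.24 (95% interval -0.69 to 0.21) and -0.42 (-0.83 to -0.00057) did not pass (limma adjusted p = 0.356 and 0.0938). MKNK2 was lower than the library with EPA, at -0.70 (adjusted p = 0.000723), but stood at 0.11 after median polish. MKNK1 stood at 0.12 with EPA and at 1.06 after median polish, past the threshold as higher, where its EPA minus untreated difference was 0.36 and did not pass. MKNK2 passed as lower with the difference centred per plate (-0.62). Both wells shared row 11 of plate 2 with MOS, 2 columns apart, and neither came close to the -1.57 of MOS.

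DUSP4, the phosphatase that acts on ERK in the nucleus, had the largest difference of the members. Its siRNA wells read 10105, 8520 and 10429 units with EPA, against 47123, 47077 and 47509 untreated. The untreated values were almost identical and close to those of OTP3 on plate 1, at 92.6% ± 2.91 (SD, n = 3), where EPA-treated wells were at 40.2% ± 7.56 of OTP3. DUSP4 stood at -0.64 from the library median with EPA and at 0.97 without it. The difference was -1.61 (SE 0.146, limma adjusted p = 0.000169), the 10th lowest of 939, and below all 19 other library wells of row 12, whose median was 0.01. It passed under all 15 alternatives tried, between -2.05 and -1.22, with adjusted p from 1.92e-05 to 0.0016. DUSP4 kept 13.3% and MOS 10.04% of their untreated signal after blank subtraction.

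The other dual-specificity phosphatases of the pathway list did not share this difference; they are named here after their values were seen. DUSP5, DUSP6 and DUSP7 sat in the same row of plate 1, in columns 9, 11 and 13 beside DUSP4 in column 7, and stood at -0.16, 0.26 and -0.13. DUSP5 read 10501 ± 2412 with EPA and 18668 ± 2179 untreated, DUSP6 read 11869 ± 2891 and 15601 ± 1608, and DUSP7 read 10947 ± 2832 and 18942 ± 2544 (SD, n = 3). Their EPA-treated levels were thus near that of DUSP4, at 9685 ± 1022, while their untreated levels were far below its 47236 ± 237. DUSP1 (0.16) and DUSP2 (0.05) also did not pass (limma adjusted p = 0.281 to 0.804 over the 5 phosphatases).

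Wells of related kinases were compared pair by pair, as the log2 difference between the wells in each sample, with EPA against without. In 7 pairs the smallest p that 3 against 3 allows is 0.1, and after adjustment over the pairs no p was below 0.35. MAP2K1 minus MAP2K2 changed by -0.55 (SE 0.076) and RPS6KA4 minus RPS6KA5 by -0.55 (SE 0.269), each with no overlap between groups (exact permutation p = 0.1). RPS6KA4 minus RPS6KA5 moved to -0.21 with row centring. The other pairs overlapped: ARAF minus BRAF changed by 0.05 (SE 0.077), MAPK4 minus MAPK6 by 0.07 (SE 0.295), and MKNK1 minus MKNK2 by 0.18 (SE 0.137). RPS6KA2 minus RPS6KA6 changed by 0.23 (SE 0.236) and RPS6KA1 minus RPS6KA3 by -0.23 (SE 0.284). ARAF was above BRAF by 1.19 with EPA and 1.14 without it, and RPS6KA2 minus RPS6KA6 stood at -1.41 with EPA and -1.64 without it, each with that sign in 6 of 6 samples. Wells of a pair differ in position, and the part of position in these gaps was not tested beyond the row and column corrections given.

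Of 35 genes that act above or beside the cascade, 30 had a library well. For EPA minus untreated 2 were lower (6.67%) and 9 higher (30%), with a median of 0.16, against the library's 15.2%, 29% and 0.20. The lower ones were SRC, a non-receptor tyrosine kinase, and PAK3, a kinase that acts on RAF. SRC read 7638, 7769 and 7516 with EPA, against 26401, 24358 and 29971 untreated, a difference of -1.0 (SE 0.15, limma adjusted p = 0.00108), and stood at -0.79 after median polish, where it passed. PAK3 read 10663, 7353 and 5915 with EPA, against 40918, 12933 and 27677 untreated, at -0.93 (SE 0.313, adjusted p = 0.0367). The untreated PAK3 values were widely spread. The call was lost with OTP3 centring (-0.41), with quantile normalization (-0.97) and on leaving out any replicate but untreated replicate 2 (-1.01 to -0.62). The highest were MAP3K8, a MEK-activating kinase, at 0.81 and the RAS exchange factor RASGRF2 at 0.81, both in outer wells. MAP3K8 read 57667, 42892 and 48059 with EPA, against 45917, 48693 and 45132 untreated, and RASGRF2 read 58638, 50840 and 61816 with EPA, against 59555, 52054 and 51108 untreated. Neither passed after median polish (0.45 and -0.04).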

How the data were processed

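The deposited table holds raw fluorescence intensity for 1152 wells, per the file headers, laid out as 3 plates with 16 rows by 24 columns each. Blank subtraction or normalization by the authors is not given in the sources used here. The column headers give a group and a number from 1 to 6, which names a group but no numbered sample of the labels. Columns 4 to 6 are called EPA-treated replicates and columns 1 to 3 untreated replicates.

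Member wells were found by locus identifier through a RefSeq gene table (GRCh38.p14 names). The members and the pathway list were chosen with earlier results of these data known. All members found are named, as are the 2 lowest and 2 highest called genes of the pathway list.

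Each intensity was expressed as log2 of its ratio to the median library well on its plate in that sample, without a pseudocount. Group means over all 939 library wells and 6 samples were fitted with limma 3.58.1 (R 4.3.3), using trend and robust moderated variances. Tests were two-sided and adjusted over all wells, with a threshold of 0.05 and 95% intervals. The 21 wells without siRNA entered no fit. The fit was also run on simulated data with independent noise in each well. Those data hold no difference in EPA loss between plate rows, so they cannot show how position affects the calls. With 3 samples per group, a well's distance from the blank also limits precision. Alternatives were centring on the median OTP3 well, blank subtraction (floored at 3 SDs of blank wells), median polish, these last 2 together, quantile normalization, centring the difference per plate, plain eBayes, removal of wells averaging under 2 times the TOX median, a log2 difference beyond 0.5 and leaving out each replicate. Row centring was chosen after seeing the data.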

Additional observations from a re-analysis of the deposited data

Results flagged for a closer look

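For 2 members, every EPA-treated sample and every untreated sample lay on opposite sides of the plate's library median, with EPA below, as was the case for 4.58% of library wells. The siRNA against DUSP4 was below the library median in 3 of 3 EPA-treated samples and above it in 3 of 3 untreated samples, with a difference of -1.61. The siRNA against MOS was likewise below it in 3 of 3 EPA-treated samples and above it in 3 of 3 untreated samples, with a difference of -1.57. The difference itself passed limma's test for both (adjusted p = 0.000169 and 0.000269). Both wells lay in the middle rows of their plates, 12 and 11. Over all 3 plates together, cells alone kept 37.6% of the untreated signal in row 12 and 34.4% in row 11. OTP3 kept 36.5% in row 11, and library wells kept 56.6% in row 12 and 55.8% in row 11. The differences were -1.53 for DUSP4 and -1.26 for MOS when wells were centred on their own row, and the part of position was not tested further.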

How the results depend on the processing

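No paired analysis was possible because the columns carry the numbers 1 to 6 and not the replicate numbers of the labels. For single members, EPA minus untreated kept its call (lower, higher or not past the threshold) in 267 of 299 alternative values. The level against the library median kept its call in 231 of 279 values with EPA and in 233 of 279 untreated. Plain eBayes and removal of low-signal wells left every log2 value as it was. For a level, so did leaving out a replicate of the other group. Only the p-value could move in those, which raises these counts. Apart from replicates left out, 120 of 159 level values with EPA and 123 of 159 untreated kept their call. DUSP4 and MOS passed for EPA minus untreated in all 15 alternatives. Where values moved, the cause was not tested, except that OTP3 centring sets another zero. The distance from the blank limits what dim wells can show.

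For EPA minus untreated, 415 library wells passed (143 lower, 272 higher), 275 with blank subtraction and median polish (146 and 129). The split was 59 and 546 with OTP3 centring, 139 and 153 after median polish, 148 and 158 with quantile normalization and 194 and 131 with the difference centred per plate. In untreated samples 652 passed (334 lower, 318 higher), 434 with blank subtraction and median polish, and 862 lower and 5 higher with OTP3 centring. The EPA-treated level gave 347 lower and 342 higher calls, which OTP3 centring turned into 607 and 127.

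Members lower for EPA minus untreated numbered 6, in place of 3, with the difference centred per plate. Members higher numbered 8 with OTP3 centring, 1 with row centring or with blank subtraction and median polish, and 0 with the centred difference (tested with limma, 3 in the original fit), and 1 to 4 when a replicate was left out. With EPA, members lower numbered 18 with OTP3 centring (9 in the original fit). Members higher numbered 1 there and 2 after median polish, with blank subtraction and median polish or with quantile normalization (4 in the original fit). Untreated, 19 were lower (7 in the original fit) and 0 higher (8 in the original fit) with OTP3 centring. Members higher untreated numbered 5 after median polish, 4 with blank subtraction too, and 4 to 8 when a replicate was left out. With OTP3 centring, 58.1% of library wells were higher for EPA minus untreated. With EPA, 64.6% were lower and 13.5% higher there, and untreated 91.8% were lower and 0.532% higher. Library calls moved with other settings too, and the member counts were not tested against them. Where no library share is given for a setting, a change in the member count is not a result about the members. The median over members was 0.37 for EPA minus untreated, -0.71 with EPA and -1.09 untreated under OTP3 centring. With EPA it was -0.28 after median polish and -0.38 with blank subtraction too, and untreated it was -0.15 with row centring.

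In the pathway list, lower calls for EPA minus untreated numbered 1 with OTP3 centring, 4 with blank subtraction, with blank subtraction and median polish or with quantile normalization, 6 with the centred difference and 1 to 3 when a replicate was left out. Higher calls numbered 18 with OTP3 centring, 3 after median polish, with blank subtraction too or with quantile normalization, 4 with the centred difference, 5 beyond a log2 difference of 0.5 and 4 to 10 when a replicate was left out. With EPA, 16 were lower and 7 higher with OTP3 centring, 6 lower after median polish and 5 lower with blank subtraction too. Untreated, 24 were lower and 0 higher with OTP3 centring, 5 lower and 6 higher with blank subtraction and median polish, and 5 to 10 lower when a replicate was left out. Library calls moved with the setting as well, and the pathway counts were not tested against them. Where no library share is given for a setting, a change in the pathway count is not a result about the list.

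The sign changes named here are those in which the value passed the test in at least 1 of the 2 settings. In a further 39 values for EPA minus untreated, 14 with EPA and 10 untreated the sign turned while neither setting passed. With OTP3 centring the untreated level changed sign for ARAF (-0.78), MOS (-0.67), MAP2K5 (-0.54), MAPK6 (-0.56), MAPK7 (-0.77), RPS6KA1 (-1.01), RPS6KA3 (-1.17), RPS6KA4 (-0.99), RPS6KA6 (-0.79), MKNK1 (-0.74) and DUSP4 (-0.11). With EPA it did so for ARAF (-0.62), MAPK7 (-0.52), RPS6KA1 (-0.54), RPS6KA3 (-0.47), RPS6KA4 (-0.59), RPS6KA5 (-0.73), RPS6KA6 (-0.45) and MKNK1 (-0.46). After median polish the level with EPA changed sign for ARAF (-0.49), KSR2 (0.016), MAP2K2 (0.0011), MAPK6 (-0.33), RPS6KA3 (-0.17), RPS6KA4 (-0.70) and MKNK2 (0.11), and the untreated level for ARAF (-0.10), KSR2 (0.050), MAP2K1 (0.066), RPS6KA3 (-0.51) and RPS6KA4 (-0.60). With blank subtraction too, the level with EPA did so for ARAF (-0.68), MAP2K2 (0.0024), MAPK6 (-0.40), RPS6KA3 (-0.24), RPS6KA4 (-1.10) and MKNK2 (0.15), the untreated level for ARAF (-0.11), KSR2 (0.034), MAP2K1 (0.079), RPS6KA3 (-0.61) and RPS6KA4 (-0.70), and EPA minus untreated for RPS6KA2 (-1.13). With row centring it did so for MAP2K2 (0.10) and RPS6KA3 (-0.050) with EPA and for ARAF (-0.0094) and RPS6KA3 (-0.39) untreated.

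Between paralogs, ARAF minus BRAF was 0.57 with blank subtraction, -0.13 after median polish, -0.089 with quantile normalization and 0.27 with row centring. MAP2K1 minus MAP2K2 was -1.31 with blank subtraction, -0.97 with median polish too and -0.40 after median polish alone. MAPK4 minus MAPK6 was 0.77 after median polish and 0.92 with blank subtraction too. RPS6KA2 minus RPS6KA6 was -0.59 with blank subtraction, -0.70 with median polish too and 0.56 with row centring. RPS6KA4 minus RPS6KA5 was -1.07 with blank subtraction and median polish and -0.21 with row centring. MKNK1 minus MKNK2 was 0.49 with blank subtraction, 0.63 with median polish too and -0.031 with quantile normalization.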
